A study of Mus musculus with 8 samples.

Results

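Serpins and kallikreins, 2 gene families that act on the same chemistry from opposite sides, were followed in the ventral prostates of mice with a human SKP2 knock-in and of wild-type mice. Members were taken by symbol: every row whose name starts with Serpin, a letter and a digit, or with Klk and a digit, and Serping1. This gave 88 of the 36333 genes listed, 62 serpins and 26 kallikreins. Both groups were FVB/N males of 12 months, with 1 library per mouse. The 4 hSKP2-KI mice carry the coding sequence of human SKP2, joined through a P2A peptide, in exon 1 of the endogenous probasin gene (Pbsn) on chromosome X, placed there by CRISPR/Cas9, so that expression follows the probasin promoter of prostate epithelium. They were bred from heterozygous knock-in females and wild-type FVB/N males. The 4 WT mice carry no insertion. Which founder line was sequenced, and whether the WT mice were littermates, is not given in the sources used here. The ventral lobe was sequenced whole, so its values are sums over epithelium, stroma, vessels and immune cells, and fewer cells of a type cannot be told apart from less RNA per cell.

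Serpins are inhibitors that serine proteases cut once: the cut springs the reactive centre loop into the body of the serpin and leaves the protease trapped and distorted. Several family members have lost this action and work as chaperones or signalling proteins. Kallikreins are secreted serine proteases that the prostate and salivary glands release into their fluids. Human prostate-specific antigen is the kallikrein KLK3, which has no mouse counterpart, whereas rodents carry an expanded Klk1b group beside Klk1, which releases kinins from kininogen. In mice many serpins also sit in tandem clusters of near copies, and the sequence of 1 copy can resemble that of the next.

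The sequences 5′ of 5 members are shown as a description, and no level or call below depends on them. These are the sequences of near copies with like promoters but unlike levels, and of the serpin with the largest log2 difference between genotypes. They run from 250 bases before to 50 after the start in RefSeq, on GRCm38.p6, and 79 of the 88 members had such an entry. Serpina3n (chr12:104406458-104406757, plus strand) and Serpina3c (chr12:104153823-104154122, minus strand) were 89.9% identical, the closest of the 28 pairs of Serpina3 genes with such an entry. Serpina3k and Serpina3m were not compared. Klk1b11 (chr7:43995627-43995926, plus strand) and Klk1b16 (chr7:44137040-44137339, plus strand) were 90.4% identical, the closest pair among Klk1b genes. Per member 1 window was kept. That of Klk1b16 lies inside the gene as annotated (chr7:44122254-44141610), so its likeness to Klk1b11 was measured for this start only. Capitals mark the aligned bases that differ in a pair, 31 of 306 alignment columns for the first and 29 of 302 for the second.
Serpina3n: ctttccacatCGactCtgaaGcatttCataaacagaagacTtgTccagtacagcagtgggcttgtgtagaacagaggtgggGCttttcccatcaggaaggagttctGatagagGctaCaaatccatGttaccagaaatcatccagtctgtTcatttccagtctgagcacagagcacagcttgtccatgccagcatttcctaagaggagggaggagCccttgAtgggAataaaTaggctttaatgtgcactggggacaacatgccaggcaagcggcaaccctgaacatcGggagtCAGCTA
Serpina3c: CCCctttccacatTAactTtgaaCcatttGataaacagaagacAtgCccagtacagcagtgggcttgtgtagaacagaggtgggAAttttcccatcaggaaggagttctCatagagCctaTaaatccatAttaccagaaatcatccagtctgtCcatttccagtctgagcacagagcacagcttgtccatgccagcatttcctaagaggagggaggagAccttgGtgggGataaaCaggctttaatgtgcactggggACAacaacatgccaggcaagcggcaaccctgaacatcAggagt
Klk1b11: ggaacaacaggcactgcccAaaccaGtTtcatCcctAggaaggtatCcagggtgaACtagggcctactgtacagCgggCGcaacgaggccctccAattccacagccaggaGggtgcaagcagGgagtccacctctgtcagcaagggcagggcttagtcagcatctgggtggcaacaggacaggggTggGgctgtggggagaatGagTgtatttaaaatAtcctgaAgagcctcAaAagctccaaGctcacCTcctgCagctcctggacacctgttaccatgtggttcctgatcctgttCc
Klk1b16: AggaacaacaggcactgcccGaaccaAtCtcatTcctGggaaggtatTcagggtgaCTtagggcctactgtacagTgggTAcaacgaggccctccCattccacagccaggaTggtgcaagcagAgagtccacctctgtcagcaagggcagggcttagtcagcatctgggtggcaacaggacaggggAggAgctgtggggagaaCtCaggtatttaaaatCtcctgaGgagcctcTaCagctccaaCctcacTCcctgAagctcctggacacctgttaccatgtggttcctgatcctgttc
In the ventral prostate the members of each pair were far apart in level. Serpina3n had a mean TPM of 40.2 in hSKP2-KI and 18.8 in WT mice, and Serpina3c of 2.88 and 2.57. Klk1b11 had a mean TPM of 3.18 in hSKP2-KI and 2.94 in WT mice, whereas Klk1b16 was above 0 only in hSKP2-KI replicates 1 and 4, at 0.094 and 0.157. TPM divides reads by transcript length and scales each library to 1 total, so levels of different genes can be set side by side. AGAACA, the core of an androgen response element, occurred on either strand in both Serpina3 windows and in neither of the Klk1b11 and Klk1b16 windows, against 19.0% of all 32851 RefSeq windows of that length. Among the 13 tested members with an entry it was in 3, Serpina3n, Serpina3c and the kallikrein Klk1b24. TATAAA occurred in the Serpina3c window and not in that of Serpina3n, against 13.6% of all windows.

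The window of Serpine2 (chr1:79858616-79858915, minus strand) was rich in G and C. Capitals mark GGGCGG on either strand, the GC box, counted 5 times without overlap from the 5′ end.
Serpine2: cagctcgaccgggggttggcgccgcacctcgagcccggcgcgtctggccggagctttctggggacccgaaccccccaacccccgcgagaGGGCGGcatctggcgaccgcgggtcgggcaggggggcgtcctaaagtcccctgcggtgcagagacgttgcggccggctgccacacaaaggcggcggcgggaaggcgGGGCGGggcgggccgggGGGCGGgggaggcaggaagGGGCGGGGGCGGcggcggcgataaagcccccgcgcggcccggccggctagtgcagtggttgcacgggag
GGGCGG was found in 35.7% of all windows, and in 7 of the 13 tested members with an entry. These were Serpine2, Serpinb5, Klk8, Serpinh1, Serpinb6b, Serpinb9 and Serpinb6a. CCAAT, found in 37.4% of all windows, was in 5 of the 13, and it did not occur in the Serpine2 window. No motif was tested against the differences between genotypes.

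As a check of the labels, the gene Skp2 had a TPM of 37.3 to 60.6 in hSKP2-KI and 1.05 to 2.27 in WT mice, and how reads of the human sequence were assigned is not stated. Pbsn, which carries the insertion, was at 93.0 to 173.8 in hSKP2-KI and 3980 to 9232 in WT mice. Ventral secretory genes (Sbp, Sbpl and Spink1) summed to 321200 to 343400 TPM in hSKP2-KI and 404200 to 458500 TPM in WT mice, with Spink1 called lower in hSKP2-KI (adjusted p = 0.0219) in the deposited TPM and not after median-ratio scaling (adjusted p = 0.0788). Msmb and Tgm4, secretory genes of other prostate lobes, were both called higher in the deposited TPM (adjusted p = 0.00599 and 0.028) and neither after median-ratio scaling (adjusted p = 0.0539 and 0.0939), and whether tissue of other lobes was included was not tested. The 8 seminal vesicle genes summed to at most 0.656 and 0.666 TPM. Since every library sums to 1000000 TPM, a smaller share for these 3 genes leaves more for the others, and 89.05% of all 13080 tested genes had a positive log2 difference, which is the mean log2(TPM + 1) of hSKP2-KI minus that of WT mice. Over all tested genes its median was 0.23 in the TPM as deposited. It was -0.01 after median-ratio scaling, which divides each library by the median, over genes, of its ratio to the geometric mean of all libraries. The divisors were 1.07 to 1.12 for hSKP2-KI and 0.828 to 0.987 for WT libraries, so the calls are given on both scales, and the deposited values are to be read against 0.23.

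Of the 88 members, 16 reached 1 TPM in 4 or more of the 8 libraries and were tested: 13 serpins and the kallikreins Klk8, Klk1b11 and Klk1b24. Serpins were higher in hSKP2-KI mice, with 10 of 13 past an adjusted p of 0.05 and none lower, and no kallikrein passed. Over the 16 tested members, 10 rose (62.5%), where 32.7% of all tested genes rose and 1.23% fell. Serpine2, Serpinf1, Serpina3n, Serping1, Serpinb1a, Serpinh1, Serpinb6b, Serpinb5, Serpinb9 and Serpinb6a were the 10. The test was limma on log2(TPM + 1), adjusted over all tested genes by the Benjamini-Hochberg method. At an unadjusted p of 0.05 the count of members lower in hSKP2-KI was also 0. For the same 10 serpins the 4 hSKP2-KI values lay above all 4 WT values, as did 34.0% of all tested genes. One of the 16, Serpinb6b, passed the filter on low values only through its hSKP2-KI libraries. Its lack of overlap in the deposited TPM was therefore fixed by the filter. Its call is not a finding, although the counts include it.

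After median-ratio scaling 2 members rose, Serpine2 and Serping1, which is 12.5% of the 16, where 6.92% of all tested genes rose and 4.25% fell. No member fell, with 0 lower and 8 higher at an unadjusted p of 0.05 in limma. The values did not overlap for 5 members, against 10.3% of all tested genes: Serpine2, Serpinh1, Serpinf1, Serpina3n and Serpinb6b. For Serpinb6b this was partly fixed by the filter. The median log2 difference of the 13 serpins was 0.74 in the deposited TPM and 0.50 after median-ratio scaling, beside 0.23 and -0.01 for all tested genes. For the 3 kallikreins it was 0.08 and -0.13. In the deposited TPM, 11 of the 13 serpins and 0 of the 3 kallikreins had a log2 difference above the median of all tested genes.

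**Figure D1:**
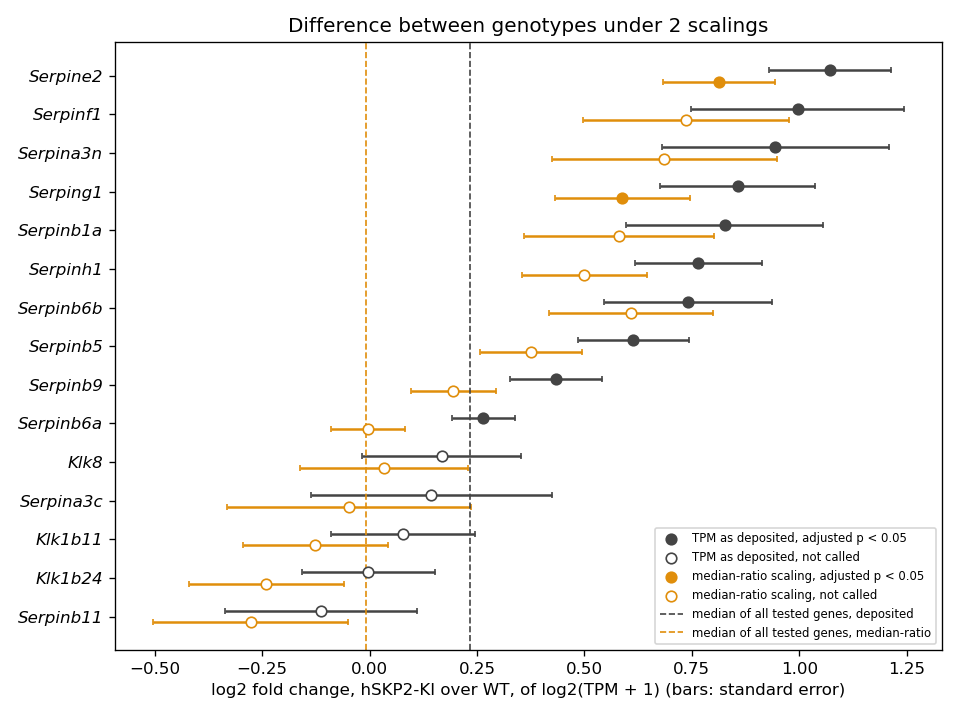
Difference in log2(TPM + 1), hSKP2-KI over WT, of 15 tested members, with the standard error as bars (4 mice per genotype), for the deposited TPM and after median-ratio scaling. Filled points have an adjusted p under 0.05 and dashed lines give the median of all 13080 tested genes. The serpins from Serpine2 (1.07 and 0.81) to Serpinb9 (0.43 and 0.20) each lie to the right of the line of the same scaling, and the kallikreins lie left of the deposited median.

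The largest differences in log2(TPM + 1) were those of secreted serpins. By the ratio of mean TPM, Serpinb6b (2.98) was above Serpine2 (2.20). Serpine2 encodes protease nexin-1, which inhibits thrombin, urokinase and plasmin at the cell surface. Its TPM was 26.5, 46.0, 35.7 and 37.9 in hSKP2-KI replicates 1 to 4, and 14.9, 16.6, 16.7 and 18.05 in WT replicates 1 to 4. The lowest hSKP2-KI mouse lay well above the highest WT mouse. Fitted across genes, the log2 difference was 1.07 (standard error 0.14, adjusted p = 0.00113), and with median-ratio scaling 0.81 (standard error 0.13, adjusted p = 0.00667). Serpine2 passed under both scalings, with each of the 8 mice left out in turn. Without 1 mouse its log2 difference lay between 0.95 and 1.21 in the deposited TPM, and between 0.70 and 0.94 after median-ratio scaling.

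Serping1 encodes the C1 inhibitor, which blocks the complement proteases C1r and C1s and plasma kallikrein. It was the second most abundant member, with 210.4, 365, 291 and 288 TPM in hSKP2-KI replicates 1 to 4 and 115, 198, 161 and 162 TPM in WT replicates 1 to 4. All hSKP2-KI values were above all WT values, although hSKP2-KI replicate 1 was close to WT replicate 2, and after median-ratio scaling the genotypes overlapped. Its log2 difference was 0.86 (standard error 0.18, adjusted p = 0.00708) in the deposited TPM and 0.59 (standard error 0.16, adjusted p = 0.0401) after median-ratio scaling. The second value depended on single mice, since it passed in 2 of the 8 fits that left out 1 mouse.

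Serpinh1 and Serpinf1 are serpins without protease inhibition. Serpinh1, the collagen chaperone HSP47 of the endoplasmic reticulum, had a TPM of 62.2, 97.8, 67.3 and 57.3 in hSKP2-KI replicates 1 to 4 and 39.2, 43.3, 35.9 and 44.4 in WT replicates 1 to 4. Serpinf1, the secreted pigment epithelium-derived factor, had a TPM of 31.4, 71.1, 44.2 and 29.2 in hSKP2-KI and 15.03, 24.7, 19.6 and 22.8 in WT replicates, in the same order. For both genes the genotypes were apart, and hSKP2-KI replicate 2 was the highest mouse. The log2 difference of Serpinh1 was 0.76 (standard error 0.15, adjusted p = 0.00493), and that of Serpinf1 1.00 (standard error 0.25, adjusted p = 0.0137). After median-ratio scaling neither passed, Serpinh1 with 0.50 (adjusted p = 0.0543) and Serpinf1 with 0.74 (adjusted p = 0.0758), though their genotypes still did not overlap.

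Serpina3n, a secreted relative of human antichymotrypsin that inhibits granzyme B and leukocyte elastase, had a TPM of 24.2, 71.0, 36.4 and 29.1 in hSKP2-KI replicates 1 to 4 and 16.8, 21.7, 16.4 and 20.2 in WT replicates 1 to 4. No hSKP2-KI mouse was below a WT mouse, but hSKP2-KI replicate 2 stood far above the other hSKP2-KI mice. On the log2 scale the difference was 0.94 (standard error 0.26, adjusted p = 0.0215), and with median-ratio scaling 0.69 (adjusted p = 0.120). The call was lost without WT replicate 1 (adjusted p = 0.0589) and without WT replicate 3 (adjusted p = 0.053). Its near copy Serpina3c overlapped between genotypes, with 1.49 to 3.91 TPM in hSKP2-KI and 1.06 to 4.09 TPM in WT mice (log2 difference 0.14, adjusted p = 0.687, and -0.05 after median-ratio scaling).

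**Figure D2:**
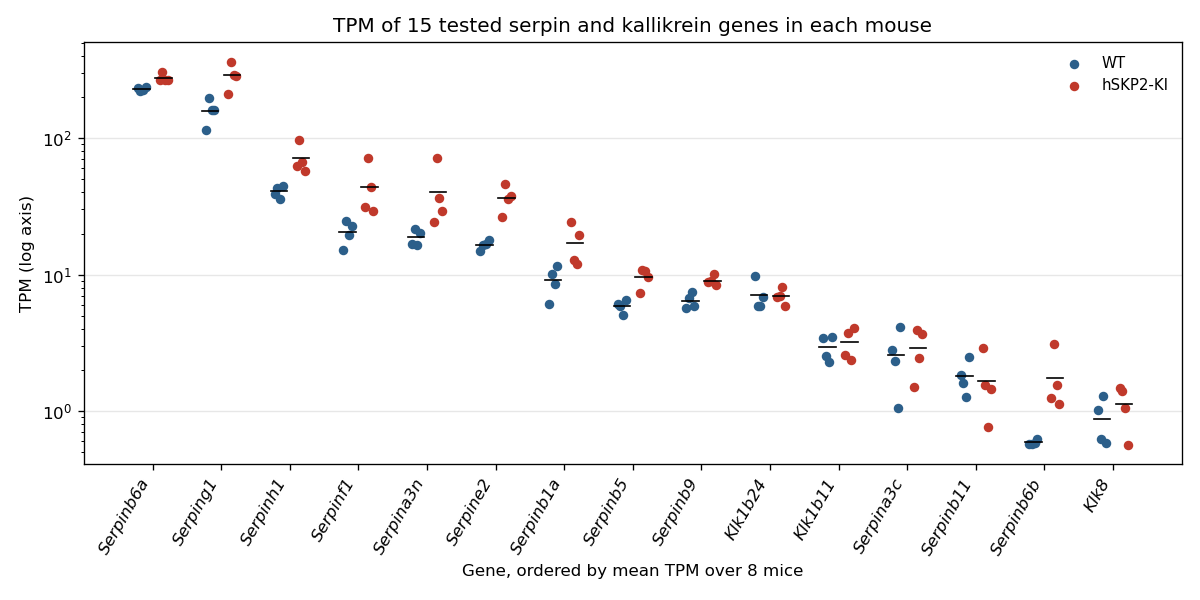
TPM on a log axis of 15 tested members in each mouse, ordered by mean TPM, with WT mice in blue, hSKP2-KI mice in red and black bars at the mean of 4 mice. Means run from 229.9 (WT) and 277 TPM (hSKP2-KI) for Serpinb6a down to 0.879 and 1.12 TPM for Klk8. The genotypes are apart for 10 serpins, among them Serpinb6b, whose separation was fixed by the filter on low values.

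Clade B serpins stay inside the cell, where they guard against proteases that leak from granules. Serpinb6a was the most abundant member in all, with 265, 307, 267 and 269 TPM in hSKP2-KI replicates 1 to 4 and 234.5, 221, 225 and 239 TPM in WT replicates 1 to 4. The genotypes did not overlap and the spread within each was small, apart from hSKP2-KI replicate 2. Its log2 difference of 0.27 (standard error 0.07, adjusted p = 0.0205) was close to the median of all tested genes, 0.23, and turned to -0.0037 (adjusted p = 0.983) after median-ratio scaling. The deposited call was lost without hSKP2-KI replicate 2 (log2 difference 0.21, adjusted p = 0.0577).

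Serpinb1a inhibits neutrophil elastase, cathepsin G and proteinase 3. It ordered the mice in its own way, with 24.1, 12.8, 12.0 and 19.5 TPM in hSKP2-KI replicates 1 to 4 and 6.03, 10.0, 8.55 and 11.6 TPM in WT replicates 1 to 4. Here hSKP2-KI replicates 1 and 4 were high and replicates 2 and 3 were just above the highest WT mouse. The difference in log2 was 0.83 (standard error 0.23, adjusted p = 0.0208), and with median-ratio scaling 0.58 (adjusted p = 0.118). It was lost without hSKP2-KI replicate 4 (adjusted p = 0.0528) and without WT replicate 1 (adjusted p = 0.0578). Summed proximal luminal markers (Psca, Krt4, Krt7, Ppp1r1b and Wfdc2) were also highest in hSKP2-KI replicates 1 and 4, at 855 and 867 TPM. The sums were 592 and 463 TPM in replicates 2 and 3 and 175 to 226 TPM in WT mice. Krt4 alone had another order, with 214.6, 239.6, 163.2 and 117.5 TPM in hSKP2-KI replicates 1 to 4. The part of these markers in the Serpinb1a difference was not tested.

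Serpinb5, maspin, is a clade B member of basal epithelial cells that does not inhibit proteases. It had a TPM of 7.37, 10.9, 10.7 and 9.64 in hSKP2-KI replicates 1 to 4 and 6.09, 5.92, 5.09 and 6.52 in WT replicates 1 to 4, without overlap. Its log2 difference of 0.61 (standard error 0.13, adjusted p = 0.00709) became 0.38 (adjusted p = 0.0713) after median-ratio scaling, where the genotypes overlapped. The 6 basal epithelial markers (Krt5, Krt14, Krt15, Trp63, Dst and Col17a1) summed to 314.5 to 455 TPM in hSKP2-KI and 214 to 324 TPM in WT mice. Of the 6, 3 were called higher in the deposited TPM and 0 after median-ratio scaling, where 32.7% and 6.92% of all tested genes were.

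Serpinb9, the inhibitor of granzyme B, ranged from 8.39 to 10.0 TPM in hSKP2-KI and from 5.73 to 7.47 TPM in WT mice, again without overlap. The log2 difference was 0.43 (standard error 0.11, adjusted p = 0.0135), falling to 0.20 (adjusted p = 0.235) after median-ratio scaling. Serpinb6b, an inhibitor of granzyme A, was at 1.25, 3.12, 1.54 and 1.12 TPM in hSKP2-KI replicates 1 to 4 and at 0.573 to 0.627 TPM in WT mice. The WT values were nearly equal and under the 1 TPM of the filter, which fixed the separation in the deposited TPM. The log2 difference was 0.74 (adjusted p = 0.0172), and with median-ratio scaling 0.61 (adjusted p = 0.0679), on a scale whose added 1 understates the change of so low a gene. Serpinb11, a clade B member with no change called, was at 0.767 to 2.89 TPM in hSKP2-KI and 1.26 to 2.49 TPM in WT mice (log2 difference -0.11, adjusted p = 0.694, and -0.28 after median-ratio scaling).

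Most of the serpin message came from a pair of genes. All serpins summed to 809.5 ± 146 TPM (SD, n = 4) in hSKP2-KI and 517 ± 42.4 TPM (SD, n = 4) in WT mice, with ranges of 672 to 1015 and 462 to 558 TPM. Serpinb6a and Serping1 made up 70.2% ± 2.82 (SD, n = 4) of this sum in hSKP2-KI and 75.3% ± 0.996 (SD, n = 4) in WT mice. Serpinb6a alone was 34.7% ± 3.83 (SD, n = 4) of the sum in hSKP2-KI and 44.8% ± 4.58 (SD, n = 4) in WT mice, and the highest hSKP2-KI mouse (39.51%) lay just under the lowest WT mouse (39.54%). The ratio of Serping1 to Serpinb6a does not depend on scaling, and it was 0.793 to 1.19 in hSKP2-KI and 0.489 to 0.899 in WT mice, so that the genotypes overlapped.

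Kallikrein message was scarce in the ventral lobe. The 26 genes summed to 15.5 ± 3.17 TPM (SD, n = 4) in hSKP2-KI and 13.2 ± 1.79 TPM (SD, n = 4) in WT mice, less than Serpine2 alone. Klk1b24, a glandular kallikrein, was the most abundant, with 6.89, 6.97, 8.15 and 5.91 TPM in hSKP2-KI replicates 1 to 4 and 9.79, 5.89, 5.86 and 6.86 TPM in WT replicates 1 to 4. WT replicate 1 was the highest and the other mice of both genotypes were mixed. Its log2 difference was -0.0031 (standard error 0.15, adjusted p = 0.989), and with median-ratio scaling -0.24 (adjusted p = 0.429). Klk1b24 made up 46.9% of the kallikrein sum in hSKP2-KI and 53.3% in WT mice.

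Klk1b11 was at 2.36 to 4.04 TPM in hSKP2-KI and 2.29 to 3.50 TPM in WT mice, with a log2 difference of 0.08 (standard error 0.17, adjusted p = 0.717) that was -0.13 after median-ratio scaling. Klk8, neuropsin, was at 0.560 to 1.48 TPM in hSKP2-KI and 0.585 to 1.296 TPM in WT mice, with a log2 difference of 0.17 (standard error 0.19, adjusted p = 0.469) that was 0.03 after median-ratio scaling. None of the 3 tested kallikreins reached an unadjusted p of 0.05 in the deposited TPM either, which does not show that they were equal. Reads of the Klk1b group are hard to place: 33.9% of the 50-base windows of the Klk1b24 transcript also occurred in transcripts of other genes of the GENCODE M21 annotation, most of them in Klk1b21, and 12.8% of those of Klk1b11. Values of single Klk1b genes are therefore uncertain. The same share was 6.9% for Serpina3n, 4.3% for Serpina3c, 3.4% for Serpinb1a, 3.1% for Serpinb6b and 2.7% for Serpinb6a, and under 1% for the other 9 tested members.

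Kallikreins known from human prostate were near 0. Klk4 was listed at 0 in all 8 libraries. Klk11 was at 0.104, 0.113, 0 and 0.216 TPM in hSKP2-KI replicates 1 to 4 and listed at 0 in all WT libraries. Klk10 was at 0.0659 to 0.647 TPM in hSKP2-KI and 0.0624 to 0.191 TPM in WT mice. Klk1, tissue kallikrein, was uneven among mice, with 0.372, 0.102, 0 and 3.10 TPM in hSKP2-KI replicates 1 to 4 and 0.176, 1.04, 1.35 and 0.0900 TPM in WT replicates 1 to 4. The high mouse, hSKP2-KI replicate 4, was also the highest hSKP2-KI mouse for Klk1b5 (2.33 TPM), Klk1b27 (1.17 TPM) and Klk1b21 (0.713 TPM). Of the Klk1 windows, 28.4% were shared with other genes, most often Klk1b5. WT ranges were 0.300 to 1.10 TPM for Klk1b5, 0 to 0.205 TPM for Klk1b27 and 0 to 0.318 TPM for Klk1b21.

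**Figure D3:**
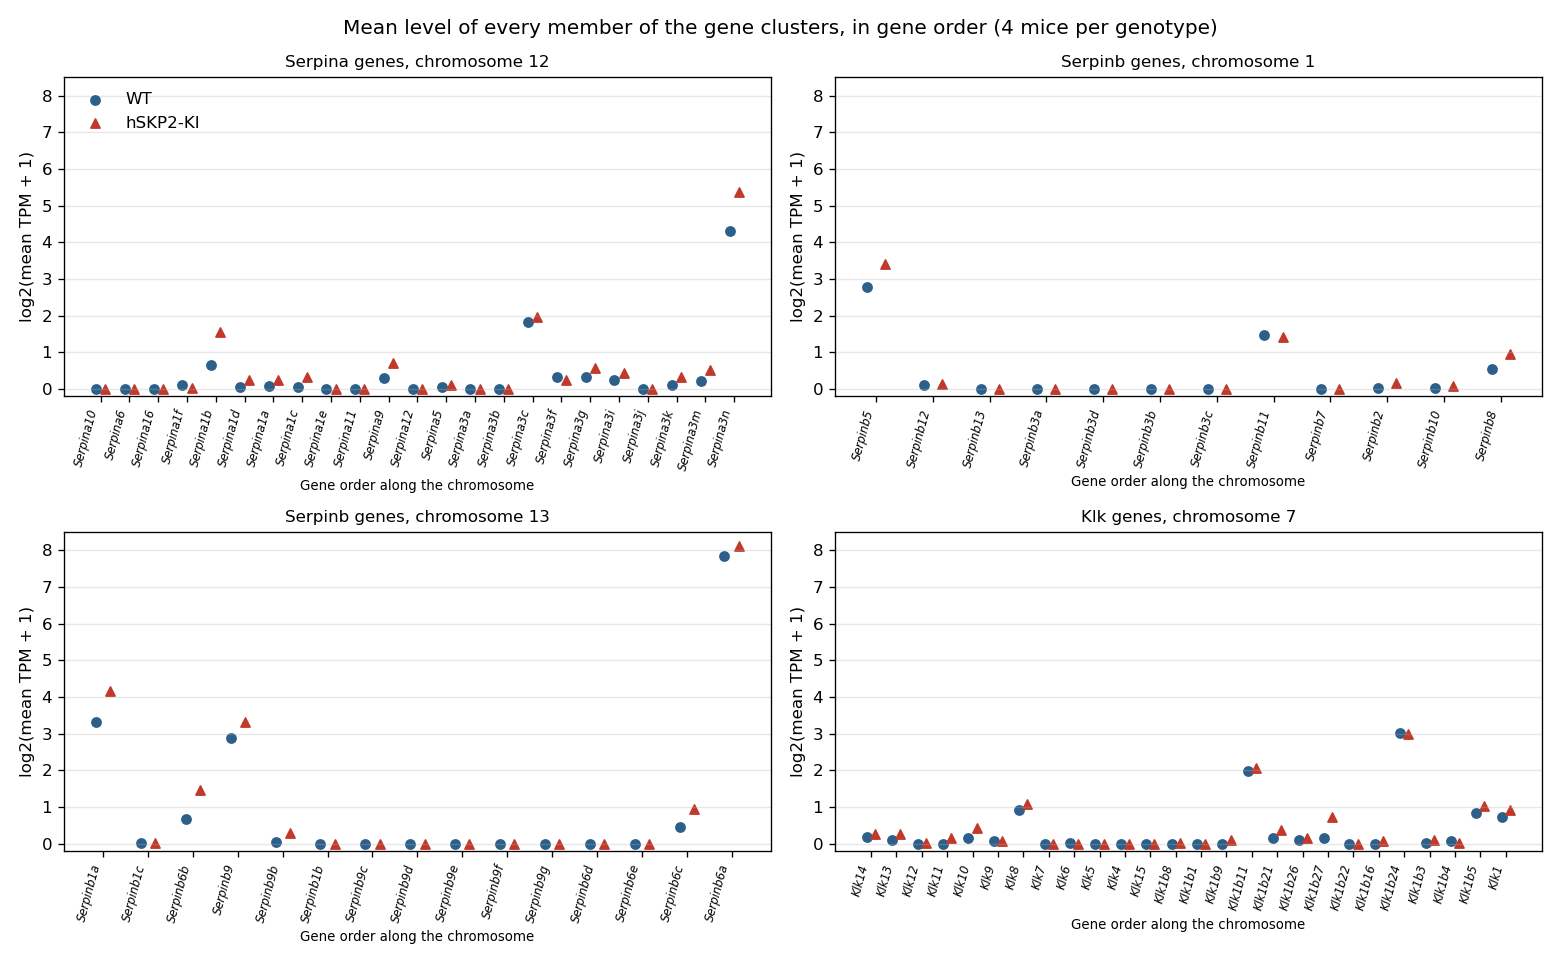
log2(mean TPM + 1) of each member in the clusters on chromosomes 12, 1, 13 and 7, in gene order, for WT (blue circles) and hSKP2-KI (red triangles) mice, 4 of each. Most members of each cluster lie near 0, and the few high ones (Serpina3n, Serpinb5, Serpinb1a, Serpinb9, Serpinb6a, Klk1b24) stand out, with Serpinb6b (a mean of 1.76 TPM in hSKP2-KI) beside Serpinb9.

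Along the chromosomes, levels of neighbouring copies were uneven. The Serpina cluster (chr12:103616675-104414334) holds 23 members, of which 2 were tested and 9 were listed at 0 in all 8 libraries. The Serpinb clusters hold 12 members on chromosome 1 (chr1:106861175-107608978, 2 tested and 6 at 0) and 15 on chromosome 13 (chr13:32842092-34002794, 4 tested and 8 at 0). On chromosome 13 the most abundant member, Serpinb6a, and the untested Serpinb6c (0.404 to 1.68 TPM in hSKP2-KI, 0.279 to 0.501 TPM in WT mice) are neighbours. All 26 kallikreins lie on chromosome 7 (chr7:43680880-44229622), 3 of them tested and 6 at 0. Coordinates are of GRCm38.p6.

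Of the 72 members not tested, 31 were listed at 0 in all 8 libraries, 25 serpins and 6 kallikreins, and 41 were above 0 in at least 1. The mean was higher in hSKP2-KI mice for 36 of those 41 (87.8%) and lower for 5, with no test, where it was higher for 67.0% of all 10746 untested genes above 0. After median-ratio scaling these shares were 82.9% and 58.8%. In all, 7 reached 1 TPM in some library. Serpina1b, an alpha-1-antitrypsin gene, was at 0.813, 4.44, 1.54 and 0.886 TPM in hSKP2-KI replicates 1 to 4 and 0.242 to 0.770 TPM in WT mice. This was the highest value of any untested member, and 35.8% of the Serpina1b windows were shared with other genes. Serpina9 and Serpinb8 reached 1.02 and 1.56 TPM in hSKP2-KI mice, against at most 0.307 and 0.681 TPM in WT mice. Hepatocyte markers, of which Serpinc1 is 1, summed to at most 1.298 TPM in any library. Serpina5, an inhibitor known from the male reproductive tract, was at most 0.120 TPM, and Serpini1, neuroserpin, at most 0.370 TPM.

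Markers of stromal, immune and epithelial cells were higher along with the serpins in the deposited TPM. The calls below are to be read beside all tested genes, of which 32.7% rose in the deposited TPM and 6.92% after median-ratio scaling. The 10 fibroblast markers (Col1a1, Col1a2, Col3a1, Dcn, Lum, Pdgfra, Dpt, Mfap5, Fbln1 and Fbln2) summed to 898 to 1584 TPM in hSKP2-KI and 484 to 699 TPM in WT mice, and 10 of 10 were called higher in the deposited TPM and 4 after median-ratio scaling. The 8 smooth muscle markers summed to 3068 to 4697 and 2066 to 2601 TPM, with 8 of 8 called higher and 5 after median-ratio scaling. Every marker of these lists and of the macrophage, endothelial, luminal and mast cell lists was tested, so none was at 0 throughout. The 7 macrophage markers summed to 212 to 433.5 and 93.5 to 193 TPM, with 6 called higher and 0 after median-ratio scaling. The 8 endothelial markers summed to 53.3 to 87.3 and 33.0 to 45.9 TPM, with 6 called higher and 3 after median-ratio scaling. The 8 luminal epithelial markers summed to 3030 to 3272 and 2662 to 2900 TPM, with 3 called higher and 0 after median-ratio scaling. The deposited share was near that of all tested genes. Of the 5 proximal luminal markers, 5 were called higher in the deposited TPM and 4 after median-ratio scaling. The 5 mast cell markers summed to 15.1 to 31.4 and 8.46 to 18.2 TPM, with 4 called higher and 0 after median-ratio scaling. Neutrophil markers, 5 in all, summed to 4.32 to 9.88 and 0.252 to 2.29 TPM, with Camp listed at 0 in all 8 libraries. Only 1 of them, Ltf, was tested, at 1.95 to 9.32 and 0.252 to 2.29 TPM. Ltf was called higher in the deposited TPM and not after median-ratio scaling. S100a8, S100a9 and Ngp overlapped between genotypes. Among hSKP2-KI mice, replicate 2 had the highest fibroblast, smooth muscle, basal, macrophage and mast cell sums. It was also the highest for 8 of the 10 called serpins and for 10 of the 16 tested members. How often replicate 2 was the highest among all tested genes is not given here.

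The levels were also set against marker sums of the same mouse. These ratios were chosen after the data were seen and are descriptions with no test. Per 1000 TPM of fibroblast markers, Serping1 was at 234, 230.2, 255 and 278 in hSKP2-KI replicates 1 to 4 and at 237, 284, 269 and 255 in WT replicates 1 to 4, so that the genotypes were mixed. Serping1 also put all 8 mice in the same order as the fibroblast sum did, 1 of 240 pairs of a tested member and a marker list to do so. Both were already apart by genotype in the deposited TPM, and the share of all tested genes with this order is not given here. Serpine2 was at 29.0 to 36.7 and 23.8 to 30.8, a ratio of means of 1.14. The ratio of means was 1.09 for Serpinf1, 1.05 for Serpina3n and 0.898 for Serpinh1, with overlap. Of the 16 tested members 0 were higher without overlap, beside 0.466% of all tested genes. Another 14 overlapped, and 2 were lower without overlap, beside 59.2% of all tested genes: Serpinb6a (194 to 296 against 316 to 485) and Klk1b24 (4.40 to 7.67 against 8.43 to 20.2).

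The split depended on the list. Per 1000 TPM of macrophage markers all 16 members overlapped, with ratios of means of 1.08 for Serpine2, 0.905 for Serping1, 1.00 for Serpinf1 and 0.958 for Serpina3n, where 0.291% of all tested genes were higher and 16.6% lower without overlap. Against proximal luminal markers 0 members were higher and 11 lower without overlap, beside 0.107% and 89.6% of all tested genes. These 11 were Serpinb11, Klk1b24, Klk1b11, Serpinb6a, Klk8, Serpinb9, Serpinb5, Serpinb1a, Serpinh1, Serping1 and Serpine2, with ratios of means from 0.256 (Serpinb11) to 0.678 (Serpine2). Against luminal epithelial markers 4 members were higher without overlap and 0 lower, beside 15.5% and 2.43% of all tested genes. They were Serpine2, Serpinf1, Serpinh1 and Serpinb6b, with ratios of means of 2.00, 1.95, 1.59 and 2.71, and Serping1 overlapped (1.65). For Serpinb6b the separation was partly fixed by the filter on low values. Shares of a cell type and expression per cell cannot be told apart here, and the part of any cell type in a serpin difference was not tested.

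**Figure D4:**
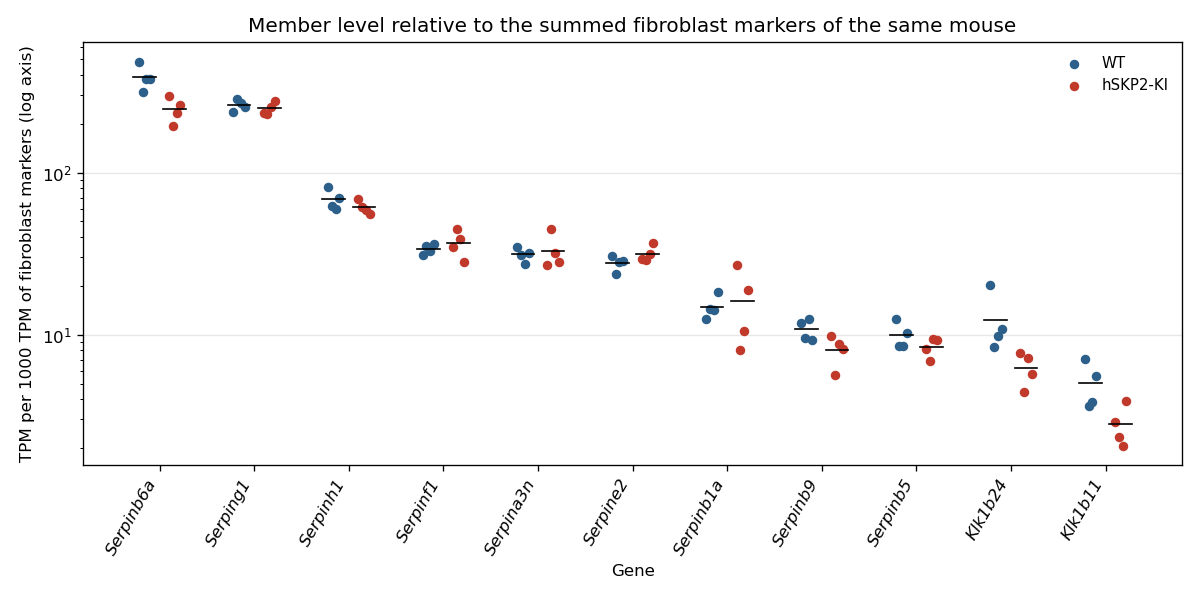
TPM of 11 members per 1000 TPM of the 10 fibroblast markers of the same mouse, on a log axis, with WT mice in blue, hSKP2-KI mice in red and black bars at the mean of 4 mice. Serping1, Serpinh1, Serpinf1, Serpina3n and Serpine2 overlap between genotypes, and Serpinb6a and Klk1b24 are lower in all hSKP2-KI mice.

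Related genes, which are proteases, their receptors and inhibitors of other families, were counted from a list of 57, 56 of them in the table and 35 tested. Of these, 20 rose and 2 fell in the deposited TPM, where 32.7% and 1.23% of all tested genes did. After median-ratio scaling 7 rose and 4 fell, where 6.92% and 4.25% of all tested genes did. Without the inhibitors and Agt, 30 were tested, of which 18 rose and 1 fell in the deposited TPM, and 7 rose and 2 fell after median-ratio scaling. Over all 35 tested related genes, inhibitors included, the median log2 difference was 0.57 in the deposited TPM and 0.32 after median-ratio scaling. It was 0.23 and -0.01 for all tested genes. As background, protease nexin-1 acts on the plasminogen activators, C1 inhibitor on C1r, C1s and the MASP proteases, and clade B serpins on granule proteases and cathepsins.

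In the plasminogen system 4 of 5 tested genes rose in the deposited TPM and 2 after median-ratio scaling. Plat, tissue plasminogen activator and a target of Serpine2, was at 6.67, 12.1, 10.0 and 9.54 TPM in hSKP2-KI replicates 1 to 4. WT replicates 1 to 4 were at 4.40, 4.99, 5.99 and 5.34 TPM, apart from hSKP2-KI in the deposited TPM. In limma the Plat log2 difference was 0.76 (adjusted p = 0.00682). After median-ratio scaling it was 0.52 (adjusted p = 0.0478) and the genotypes overlapped. The second call held in 1 of the 8 fits that left out 1 mouse. Plaur, the urokinase receptor, was at 4.42 to 6.94 and 1.97 to 3.24 TPM (log2 difference 0.81, adjusted p = 0.00431; after median-ratio scaling 0.60, adjusted p = 0.0209). Lrp1, the receptor that clears serpin and protease complexes, rose by 0.71 (adjusted p = 0.023) and Plgrkt by 0.43 (adjusted p = 0.013), in the deposited TPM but not after median-ratio scaling. Plau, urokinase, overlapped and did not pass (log2 difference 0.54, adjusted p = 0.0912, and 0.29 after median-ratio scaling), and Plg was at a mean of 0.00809 TPM in hSKP2-KI and listed at 0 in WT mice.

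Complement and coagulation proteases rose in 3 of 3 tested, C1s1 (log2 difference 0.78), C1ra (0.79) and Masp1 (0.68), and after median-ratio scaling Masp1 alone passed (0.53, adjusted p = 0.0272). Masp1 reached the filter on low values only through its hSKP2-KI libraries. Its separation in the deposited TPM was therefore fixed by the filter, and its call is not a finding. The counts of related genes that rose include Masp1. It was at 1.22 to 2.21 TPM in hSKP2-KI and 0.708 to 0.791 TPM in WT mice. Of the protease-activated receptors F2r, the thrombin receptor, rose (0.76, and 0.52 after median-ratio scaling, adjusted p = 0.0468), and F2rl1 did not pass (-0.46, adjusted p = 0.144, and -0.71 after median-ratio scaling, adjusted p = 0.0767). With 1 mouse left out, the F2r call after median-ratio scaling held in 2 of 8 fits.

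Among membrane-anchored and secreted serine proteases 4 of 9 rose, and 1 fell. Prss23 showed the clearest difference, at 44.9, 65.1, 57.7 and 41.0 TPM in hSKP2-KI replicates 1 to 4 and 22.2, 19.6, 23.0 and 26.4 TPM in WT replicates 1 to 4 (log2 difference 1.14, adjusted p = 0.000905; after median-ratio scaling 0.88, adjusted p = 0.0093). Htra3 (1.18 and 0.93) and hepsin, Hpn (0.90 and 0.68), also passed under both scalings, and Htra1 (0.57) in the deposited TPM only. After median-ratio scaling with 1 mouse left out, Htra3 passed in 4 of 8 fits and Hpn in 6. Tmprss2, an androgen-regulated protease of luminal cells, was at 98.6, 96.7, 89.2 and 102 TPM in hSKP2-KI replicates 1 to 4 and 160.1, 127, 139.6 and 105 TPM in WT replicates 1 to 4. The highest hSKP2-KI mouse was just under the lowest WT mouse, with a log2 difference of -0.44 (adjusted p = 0.0169) and of -0.71 (adjusted p = 0.0175) after median-ratio scaling. Prss8, prostasin, passed only after median-ratio scaling (-0.40, adjusted p = 0.0387), and there in 2 of 8 fits with 1 mouse left out.

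Of 5 leukocyte proteases tested, the mast cell genes Tpsb2 (0.72) and Cma1 (0.79) passed in the deposited TPM, a share near the 32.7% of all tested genes, and 0 passed after median-ratio scaling. Gzma and Gzmb, whose products Serpinb6b and Serpinb9 inhibit, were near 1 TPM in both genotypes, with means of 1.61 and 1.01 TPM in hSKP2-KI and 1.41 and 1.19 TPM in WT mice, and did not pass (log2 differences 0.07 and -0.14, and -0.09 and -0.29 after median-ratio scaling, adjusted p = 0.790 and 0.547 in the deposited TPM). Elane, a target of Serpinb1a, was at a mean of 0.0464 and 0.0463 TPM. All 4 lysosomal cysteine proteases rose in the deposited TPM, Ctsl (0.63), Ctsk (1.18), Ctss (1.20) and Ctsb (0.85), and 0 after median-ratio scaling. For Ctss, hSKP2-KI replicate 2 was at 98.3 TPM and the other hSKP2-KI mice were at 20.6 to 31.2 TPM.

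Inhibitors of other families and Agt, a serpin relative that yields angiotensin, were mixed. Spink5 (log2 difference 0.55, adjusted p = 0.0235) and Tfpi (0.65, adjusted p = 0.00653) rose in the deposited TPM, and neither passed after median-ratio scaling. Spink5, an inhibitor of kallikreins in skin, was at 3424 to 5549 TPM in hSKP2-KI and 2654 to 3574 TPM in WT mice, far above every serpin. Spink8 fell under both scalings (-0.54 and -0.79), and Spint1, the inhibitor of hepsin and matriptase, after median-ratio scaling only (-0.49, adjusted p = 0.0357). With 1 mouse left out, the median-ratio call held in 2 of 8 fits for Spink8 and 1 of 8 for Spint1. In the kinin system 0 of 2 tested genes passed, with Ace at 146 and 147 TPM on average and Kng1 listed at 0 in all libraries. Agt had a mean of 0.975 TPM in hSKP2-KI and 0.719 TPM in WT mice and was not tested.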

How the data were processed

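RNA from the ventral prostates of 8 mice, 4 per genotype, was purified on poly-T beads and sequenced in paired reads. The authors deposited TPM values, trimmed and mapped in CLC software. Per the labels the build was mm10 (GRCm38). Annotation and counting options are not given in the sources used here. Each library summed to 1000000 TPM, and the table holds no counts. A nominal read number is stated in the methods, but not the reads of each library, so no interval from counts is given. No label says whether the libraries differ in batch. The table held 0 columns of other samples.

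Groups were taken from the genotype labels. Genes reaching 1 TPM in 4 or more of 8 libraries were compared on log2(TPM + 1) with limma 3.58.1 (trend) in R 4.3.3, adjusted by the Benjamini-Hochberg method over 13080 genes, at a threshold of 0.05. The p-values measure the spread between mice of 1 strain and age. The procedure was tested on simulated data. Tables and figures were made with pandas 2.3.3 and matplotlib 3.10.9 in Python 3.11.15. Promoters came from RefSeq (GRCm38.p6) and transcript windows from GENCODE M21.

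Members named with values were those called under either scaling, the 8 most abundant serpins and 8 most abundant kallikreins, those without overlap after median-ratio scaling, a list well known in prostate or stroma, and untested members reaching 1 TPM. Other members are named as examples, after their values were seen. A few of the genes listed are not reported here; counts, medians and sums over members include them, and sums over markers do not. Members, related lists and marker lists (fibroblast, smooth muscle, endothelial, luminal, basal, proximal luminal, macrophage, mast cell, neutrophil, seminal vesicle, other prostate lobes, ventral secretion, skeletal muscle, erythrocyte, hepatocyte) were chosen with earlier results of these data known. Alternatives were leaving out each mouse, a replicate block, 3 other scalings (median-ratio, quantile, and TPM summed again after dropping the top 20 genes), a pseudocount of 0.1, and filters of none or of a mean TPM of 5 or more. Median-ratio scaling with a mouse left out, and the ratios to marker sums, were added after seeing the data.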

Additional observations from a re-analysis of the deposited data

Results flagged for a closer look

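Among the 46 groups of 4 mice examined for a mouse far from the others, 3 held one, and chance gives about 1 in 20 groups. Serpinb6a stood at 307 TPM in hSKP2-KI replicate 2, with the other hSKP2-KI mice at 265 to 269 TPM. Klk1b5 stood at 2.33 TPM in hSKP2-KI replicate 4, with the other hSKP2-KI mice at 0.452 to 0.724 TPM. Klk1 stood at 3.10 TPM in the same hSKP2-KI replicate 4, with the others at 0 to 0.372 TPM. Of the 50-base transcript windows, 18.8% of those of Klk1 also occurred in Klk1b5, and 12.7% of those of Klk1b5 in Klk1. How shared reads were counted is not given. The high values of Klk1 and Klk1b5 in the same mouse may therefore not be independent readings, which was not tested.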

How the results depend on the processing

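Scaling changed the count of members called most. In place of 10 higher, median-ratio scaling, quantile normalization and rescaling without the 20 most abundant genes each called 2, which were Serpine2 and Serping1 under the first and Serpine2 and Serpinh1 under the other two. A pseudocount of 0.1 and a replicate block called the same 10, no filter kept 8 of them (Serpina3n and Serpinb1a were lost), and a mean TPM of at least 5 kept 9 of the 9 left in the fit. With 1 mouse left out, 8 to 10 members were called in the deposited TPM (8 without WT replicate 1) and 1 to 3 after median-ratio scaling, Serpine2 in every such fit. No member was called lower under any alternative. The log2 fold change of Serpinb6a, 0.27 in the deposited TPM, turned to -0.0037 after median-ratio scaling, and there to -0.0496 without hSKP2-KI replicate 2, to -0.061, -0.0041 and -0.0018 without WT replicates 2, 3 and 4. Direction of the other called members held under all alternatives run.

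Among related genes, 20 higher became 7, 4 and 5 under median-ratio scaling, quantile normalization and rescaling without the 20 most abundant genes, and 1 to 7 after median-ratio scaling with 1 mouse left out (1 without WT replicate 1, 3 without hSKP2-KI replicate 3 or WT replicate 4, 4 without WT replicate 2, 5 without hSKP2-KI replicate 2 or 4, 6 without WT replicate 3, 7 without hSKP2-KI replicate 1). The 2 lower became 1 with no filter and 4 after median-ratio scaling, and 1 at the lowest with 1 mouse left out: without hSKP2-KI replicate 2 or 4 in the deposited TPM, and without hSKP2-KI replicate 2, 3 or 4 or WT replicate 4 after median-ratio scaling. A fit with fewer mice has fewer degrees of freedom. For the other changes the cause was not tested.

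Replicate numbers did not pair the mice, with correlations of the deviations of same-numbered mice of 0.22, -0.11, 0.17 and -0.01 across genes, and the replicate block changed no call of a member. The table holds no read counts per library, so how far counting error limits members near 1 TPM was not computed.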

Other observations

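Msmb and Tgm4, secretory genes of other prostate lobes, summed to 7142 to 13620 TPM in hSKP2-KI and 4129 to 6071 TPM in WT mice, and hSKP2-KI replicate 4, the mouse with high Klk1 and Klk1b5, had the highest sum. Tgm4 itself was highest in hSKP2-KI replicate 1 and ranged from 4.99 to 77.5 TPM in hSKP2-KI and from 1.06 to 2.16 TPM in WT mice. Skeletal muscle markers summed to 252 to 411 and 158 to 299 TPM, of which Acta1 alone was at 244 to 370 and 151 to 229 TPM. Myh4 was at 12.3 TPM in hSKP2-KI replicate 4, 12.6 TPM in WT replicate 2, and at most 0.3065 TPM in the other libraries. Ckm and Mylpf were highest in the same mice of each genotype and were not called (limma on the deposited TPM, adjusted p = 0.805 and 0.684). Erythrocyte markers summed to 1906 to 2950 and 654 to 2360 TPM. The part of any of these genes in the kallikrein values was not tested.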
